A study of Drosophila melanogaster with 3 samples.

Results

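The 500 Cycle peaks with the highest deposited signal were chosen by that signal from the 7227 peaks that passed the irreproducible discovery rate (IDR) threshold on the dm6 assembly, and the other 6727 peaks served for comparison. The peaks come from chromatin immunoprecipitation and sequencing (ChIP-seq) with an antibody against GFP, made from entire animals at the white prepupa stage. The Drosophila melanogaster line is transgenic and stably expresses Cycle with GFP at its C terminus, and the labels do not say whether the animals also made untagged Cycle. Males and females were pooled, and 3 biological replicates form the only group, so no conditions were compared. A whole-animal sample cannot tell apart binding in many cells from strong binding in a few, and per the labels the age of the animals is unknown. The signal of the 500 peaks is therefore a description, with no test. The weakest had 752.0, the strongest 5704.7 and the median peak 1002, against a median of 200.0 in the other peaks. The 5 peaks just inside the boundary (nearest to Antp, jar, Mon1, Acbp1 and Reph) had signals of 752.0 to 754.3, and the 5 just outside (Reg-2, soti, Dus2, Ids and Np) 745.8 to 751.8, so no gap separates the 500 from the peaks that follow.

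Cycle is a bHLH-PAS protein that pairs with Clock, and in clock cells the pair binds the E-box CACGTG and activates per, tim and other circadian genes. White prepupae are animals that have just formed the puparium under a pulse of the steroid hormone ecdysone. Promoters of the fly carry their own DNA elements, among them the GA repeats read by GAGA factor, the TATCGATA sequence read by DREF and BEAF-32, and the GGTCACAC sequence of M1BP.

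Sequences at the summits, the positions of highest signal, are shown for 3 sets of these peaks, read from the RefSeq Release 6 genome (dm6). No window printed here overlaps an annotated UTR. A chromosome arm that is not printed here and windows over UTRs were passed over, and the peaks that remain are called eligible. The first set holds the 5 strongest eligible peaks, 50 bp on each side of the summit, to show what the top of the list looks like. Capitals mark any of the 15 motifs searched other than the composition controls AAAAAA and CGCGCG. Each name is that of the nearest protein-coding start.
CG14100, chr3L:19590571-19590671, plus strand: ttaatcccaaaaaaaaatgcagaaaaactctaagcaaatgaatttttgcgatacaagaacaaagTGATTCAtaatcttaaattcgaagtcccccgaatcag
cbt, chr2L:481008-481108, plus strand: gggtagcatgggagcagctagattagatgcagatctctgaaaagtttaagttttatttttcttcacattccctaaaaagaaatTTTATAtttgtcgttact
Lk6, chr3R:11760986-11761086, plus strand: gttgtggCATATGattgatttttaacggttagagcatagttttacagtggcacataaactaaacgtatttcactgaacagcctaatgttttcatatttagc
CG11050, chr2L:6612672-6612772, plus strand: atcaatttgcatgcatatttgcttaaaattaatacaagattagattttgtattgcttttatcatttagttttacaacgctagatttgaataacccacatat
Tcs5, chr3L:5139451-5139551, plus strand: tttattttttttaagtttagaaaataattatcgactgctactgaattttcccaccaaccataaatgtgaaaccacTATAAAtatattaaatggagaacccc
In CG14100 the capitals are a match to the AP-1 sequence TGANTCA, in cbt and Tcs5 the TATA sequence (TATAAA, on the minus strand at cbt), and in Lk6 the E-box class CATATG. CG11050 had none within 50 bp. The second set holds the strongest eligible peaks with the E-box of Clock and Cycle, in capitals, within 50 bp of the summit.
Paics, chrX:12754459-12754559, plus strand: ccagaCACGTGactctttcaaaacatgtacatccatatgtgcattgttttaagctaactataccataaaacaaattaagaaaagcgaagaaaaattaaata
fok, chr2L:20085203-20085303, plus strand: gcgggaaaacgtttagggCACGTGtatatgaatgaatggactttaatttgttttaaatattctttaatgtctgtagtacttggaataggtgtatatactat
CG45544, chr3R:29256271-29256371, plus strand: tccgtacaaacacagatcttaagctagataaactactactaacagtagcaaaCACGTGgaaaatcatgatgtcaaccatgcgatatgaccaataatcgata
The third set runs from the summit (first base) to 15 bases past the sequence CTACGCCC, in capitals, on the strand that reads it. It shows the 6 strongest eligible peaks with this sequence 3' of the summit within 100 bp, and the sequence was singled out after its counts were seen.
CG14100, chr3L:19590621-19590702, plus strand: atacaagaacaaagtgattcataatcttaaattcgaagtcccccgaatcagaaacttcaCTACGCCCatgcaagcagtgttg
Ugalt, chrX:2703886-2703985, plus strand: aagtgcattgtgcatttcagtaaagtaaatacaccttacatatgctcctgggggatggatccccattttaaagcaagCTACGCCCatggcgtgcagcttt
Tcs5, chr3L:5139501-5139589, plus strand: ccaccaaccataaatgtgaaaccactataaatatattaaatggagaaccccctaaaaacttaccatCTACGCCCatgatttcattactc
CG16753, chr3L:3060805-3060902, plus strand: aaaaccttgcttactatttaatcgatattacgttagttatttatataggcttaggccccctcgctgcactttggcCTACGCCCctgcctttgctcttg
Hpf1, chr3R:5791664-5791777, minus strand: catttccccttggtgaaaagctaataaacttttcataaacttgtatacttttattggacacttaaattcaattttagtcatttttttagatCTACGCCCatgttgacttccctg
CG3009, chrX:4667001-4667108, plus strand: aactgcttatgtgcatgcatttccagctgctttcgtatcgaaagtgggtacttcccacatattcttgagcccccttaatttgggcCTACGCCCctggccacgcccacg

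Every one of the 500 peaks overlapped a peak in the list of each replicate, while 91.3, 99.0 and 98.7% of the other peaks did so in replicates 1, 2 and 3. Relative signal is the signal of the overlapping replicate peak divided by its median over all thresholded peaks with one. Its median among the 500 was 5.03 in replicate 1, 4.83 in replicate 2 and 4.41 in replicate 3, or 4.76 ± 0.317 (SD, n = 3), against 0.934 to 0.945 in the other peaks. Among the 500 it ran from 1.86 to 34.3 in replicate 1, from 1.81 to 25.5 in replicate 2 and from 2.49 to 21.1 in replicate 3, so all of them stood above the median of the list in every replicate. The ranges still overlapped those of the other peaks, whose highest values were 19.1, 8.53 and 7.50. The list gives some intervals more than once, with different summits, and 29 of the other peaks share their interval with one of the 500, so that both can take the value of the same replicate peak. The highest value, 19.1, is such a case at Adf1. Without these 29 the highest values of the other peaks were 5.66, 4.38 and 5.29, and 192, 320 and 154 of the 500 lay above them.

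Of the 500, 423, 459 and 417 were among the 500 strongest peaks of the lists of replicates 1, 2 and 3. All 3 of these lists held 339 of them at this rank, 2 lists held 121, and 1 list held 40. The lowest ranks were 1476, 1571 and 905. Replicate 1 gave the highest relative signal for 272 of the 500 and replicate 3 the lowest for 343. The coefficient of variation over the replicates had a median of 17.8%, against 23.6% in the other peaks present in all 3 replicates. In the next 500 peaks by rank the median was 17.6%, so the lower spread was not particular to the 500. Among the 500, single peaks ranged widely. The coefficient was lowest at an intergenic peak 25132 bp from a start of Tollo, with 3.85, 3.88 and 3.86 in replicates 1, 2 and 3, followed by peaks near Mppe (1.93%) and ppk (1.95%). It was highest at 75.6% between the divergent starts of CG18428 and eIF4EHP, with 2.40, 1.81 and 6.95, and next at koko (72.1%) and osp (69.2%). In koko the values were 1.86, 2.24 and 6.41, and in osp 2.00, 3.12 and 7.51, so replicate 3 stood above the others in all 3 of these peaks.

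Peaks were also chosen without each replicate in turn, from the mean relative signal of the other two, and then read in the replicate left out. The candidates were still the thresholded peaks, a list made from all 3 replicates. The replicate left out thus had a part in which peaks could be chosen, so the values are no independent replication. The 500 peaks chosen this way had a median of 4.94 in replicate 1, 4.83 in replicate 2 and 4.22 in replicate 3, or 4.67 ± 0.388 (SD, n = 3). Of them, 79.7% ± 6.62 (SD, n = 3) were among the 500 strongest thresholded peaks by the replicate left out. In the replicate left out, 99.6 to 100% of them lay above the median of the peaks not chosen. They shared 464, 473 and 458 peaks with the 500 described here.

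**Figure D1:**
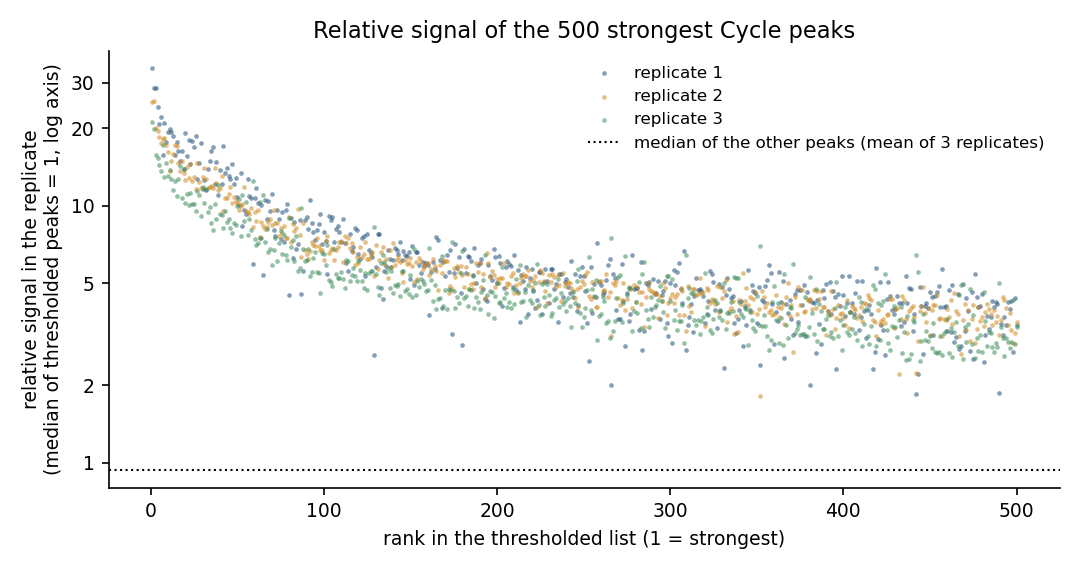
Relative signal (log axis) of the 500 strongest peaks in each of 3 replicates, by rank in the thresholded list. Each point is 1 peak in 1 replicate and the dotted line is the median of the other peaks, averaged over the replicates. All points lie above 1, the median of the list, and the spread between replicates is widest at single peaks in the lower ranks.

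The strongest peaks sat mainly at promoters. Of the 500 summits, 309 (61.8%) had a transcript start of a protein-coding gene within 1 kb, against 46.9% of the other summits, an odds ratio of 1.83 (95% interval 1.52 to 2.22; Fisher's exact test, adjusted p = 7.19e-10 over 6 location classes). Introns further from a start held 27.2% against 32.9% (odds ratio 0.762, adjusted exact p = 0.0174), and intergenic sequence 10.2% against 19.3% (odds ratio 0.475, adjusted exact p = 3.02e-07). A 5' UTR exon held 1 summit of the 500, a coding exon 1 and a 3' UTR exon 2, and none of these classes passed the threshold. Among summits over 1 kb from any start, 136 of 191 (71.2%) were in introns, against 61.9% of the others (odds ratio 1.52, exact p = 0.00918). The smaller intron share over all summits thus comes with more summits at starts, and away from starts introns held the larger share.

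The excess at starts also held against the next 500 peaks by rank, of which 51.0% lay within 1 kb of a start (odds ratio 1.55, adjusted exact p = 0.00381). The intron difference did not hold there (odds ratio 0.855, adjusted exact p = 0.590), nor with 500 bp around starts (odds ratio 0.905, adjusted exact p = 0.636). The median distance to the nearest start was 506 bp in the 500 and 1244 bp in the other peaks. Only 11.8% of the 500 were within 100 bp of a start, against 16.8% of the others, but 39.2% against 30.4% were within 250 bp.

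The summits of the 500 tended to lie further upstream of the start than other promoter summits. Of the 309 within 1 kb, 41.4% (exact 95% interval 35.9 to 47.1%) lay 100 to 250 bp upstream, against 26.6% (25.1 to 28.2%) of the others. The last 100 bp before the start held 12.9% (9.41 to 17.2%) against 28.1% (26.6 to 29.7%). The share upstream in all was 79.0% and 77.1%, and the median position was 145 bp and 98 bp upstream. In the next 500 peaks by rank the median was 119 bp upstream, and in the 3227 weakest 87 bp upstream. The bins of position were chosen after the positions were seen and are given without a test.

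**Figure D2:**
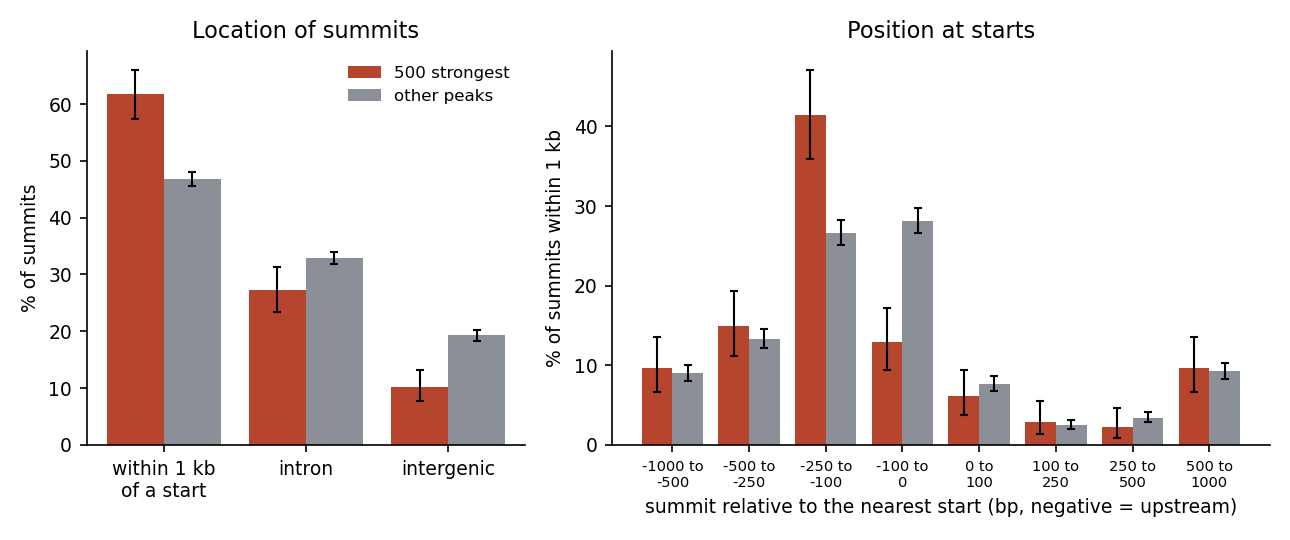
Left, share of summits within 1 kb of a protein-coding start, in introns and in intergenic sequence. Right, position of the summits within 1 kb relative to the nearest start. Red bars are the 500 strongest peaks, grey bars the other peaks, and error bars exact 95% binomial intervals. The 500 exceed the others at 100 to 250 bp upstream (41.4 against 26.6%) and fall below them in the last 100 bp (12.9 against 28.1%).

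Summits between divergent starts, with starts of different genes within 1 kb on both sides that point away from each other, made up 20.4% of the 500 and 15.8% of the others (odds ratio 1.36, exact p = 0.00971 by Fisher's test, 95% interval 1.07 to 1.71). Among summits within 1 kb of a start the shares were 33.0 and 33.8% (odds ratio 0.964, exact p = 0.801), so no difference beyond the nearness to starts was detected. Against the next 500 peaks the odds ratio was 1.08 (exact p = 0.692). No chromosome arm passed the threshold. The X held 20.2% of the 500 and 19.6% of the others (odds ratio 1.04, 95% interval 0.820 to 1.31; adjusted exact p = 0.806), and 2L, which differed most, 20.8 and 17.5% (adjusted exact p = 0.359). In replicate 2 the median relative signal of the 500 was higher on the X (5.15) than on the autosomes (4.76), while it was lower on the X in replicate 1 (4.73 and 5.08) and replicate 3 (4 and 4.44).

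No summit of the 500 lay in a tRNA, snoRNA, snRNA or rRNA gene or in an annotated transposable element. Among the others the shares were also low, at 0% for tRNA and rRNA, 0.0149% for snoRNA, 0.0743% for snRNA and 0.238% for transposable elements. An ncRNA gene held 24 (4.80%) of the 500, against 5.16% of the others. Only 3 of the 500 (0.600%) were within 500 bp of a transposable element, against 1.83% of the others.

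The 500 peaks carried the E-box of Clock and Cycle as rarely as the rest of the list. CACGTG lay within 100 bp of 7 of the 500 summits (1.40%, exact 95% interval 0.565 to 2.86%) and of 1.65% of the others (odds ratio 0.846, 95% interval 0.331 to 1.82; adjusted exact p = 0.908 over 17 motifs). The 5 strongest of the 7 were nearest to mRpL23, Paics, fok, sgll and CG45544. At mRpL23, which encodes a mitochondrial ribosomal protein and ranked 50, the relative signals in replicates 1, 2 and 3 were 10.8, 10.2 and 9.97. At CG45544, which ranked 265 and whose summit is also within 1 kb of a start of stg, they were 6.21, 4.62 and 3.06. Those 2 peaks differed in spread, with the values of mRpL23 close together and those of CG45544 falling apart between replicates 1 and 3.

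Other motifs differed by small margins within 100 bp. The palindrome GTGCAC was found at 12.2% of the 500 summits and 8.07% of the others (odds ratio 1.58, adjusted exact p = 0.0232), but within 50 bp the direction turned (odds ratio 0.774, adjusted exact p = 0.707). GGCGCC (1.00 against 3.12%), GGTCACAC (0.400 against 2.08%) and AAAAAA (43.4 against 49.7%) were less frequent, with adjusted exact p = 0.0232, 0.0232 and 0.0303. AAAAAA is a control for base composition, and the median GC content of these windows was 34.8% in the 500 and 34.3% in the others. None of these 4 differences passed against the next 500 peaks (adjusted exact p from 0.845 to 0.921), nor did any within 250 bp (adjusted exact p from 0.0603 to 0.302). GGCGCC also missed the threshold without replicate 1 or without replicate 3, and AAAAAA without replicate 1 (adjusted exact p from 0.0559 to 0.0690). TATCGATA was found at 1.60% of the 500 and 3.45% of the others, which missed the threshold (adjusted exact p = 0.0755). Its odds ratio against the next 500 peaks was 0.887, which also missed the threshold. The share was 1.8% in the next 500 peaks, so a low share was not particular to the 500, and 4.09% in the 3227 weakest peaks. Among summits within 1 kb of starts TATCGATA was less frequent, at 2.59 against 6.79%, as was GGCGCC, at 0.647 against 3.81% (both adjusted exact p = 0.0125). GGTCACAC was less frequent there too, at 0.324 against 3.84% (adjusted exact p = 0.00436). Away from starts GTGCAC was more frequent, at 16.8 against 9.90%, and TATAAA less, at 26.2 against 36.6% (both adjusted exact p = 0.0254). None of these differences near or away from starts was tested against the next 500 peaks.

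GAGAGA, the site of GAGA factor, was found within 100 bp of 12.8% of the 500 summits and 9.42% of the others, and missed the threshold (odds ratio 1.41, 95% interval 1.05 to 1.86; adjusted exact p = 0.0620). Away from starts the shares were 18.8 and 10.8% (adjusted exact p = 0.0227), near starts 9.06 and 7.87% (adjusted exact p = 0.751), and the difference between these strata was not tested. The result over all summits turned on the window. Within 250 bp, a wider setting tried as an alternative, the shares were 39.6 and 24.5% (odds ratio 2.03, 95% interval 1.67 to 2.45; adjusted exact p = 1.13e-11). Within 50 bp the direction turned, at an odds ratio of 0.574 (adjusted exact p = 0.274). In the wider window the excess was found both within 1 kb of starts (40.5 against 22.5%, adjusted exact p = 5.25e-10) and away from them (38.2 against 26.2%, adjusted exact p = 0.00680). The share was 31.2% in the next 500 peaks.

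The GAGAGA sites flanked the summits. Counting overlapping matches, 5 of 481 sites (1.04%) around the 500 lay within 25 bp of the summit, against 4.63% around the others. At 75 to 150 bp on the 5' side there were 8.8 to 9 sites per 100 peaks in each 25 bp, against 3.03 to 3.23 around the others. At 150 to 175 bp on the 3' side there were 10 against 2.26. The median width of the 500 peaks was 387 bp, so part of these sites lay at or past the edges of the peaks.

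**Figure D3:**
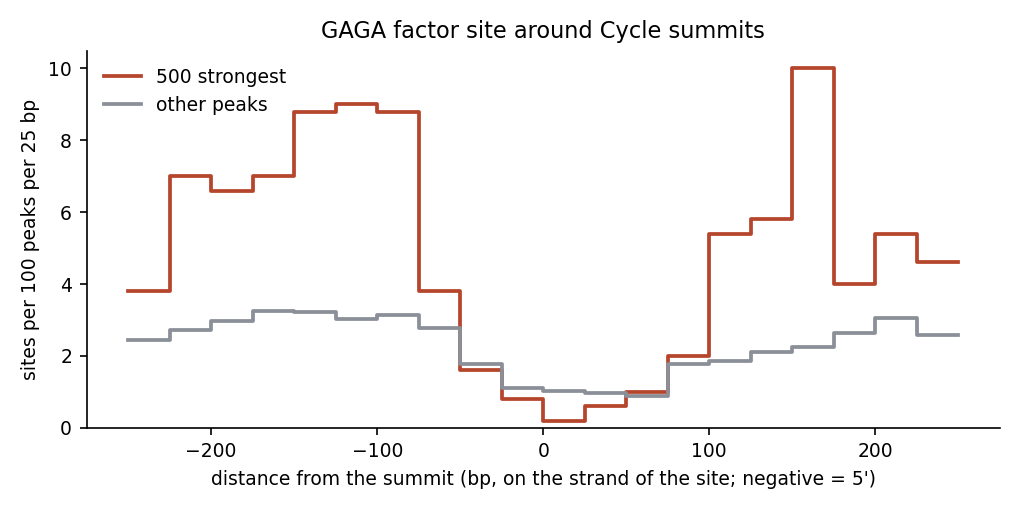
GAGA factor sites per 100 peaks in bins of 25 bp, by distance of the site from the summit, on the strand of the site. The red line is the 500 strongest peaks and the grey line the other peaks, and overlapping matches are counted. Both lines are low from 25 bp on the 5' side to 75 bp on the 3' side, and the red line stands above the grey one beyond 50 bp on either side.

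CAGCTG, an E-box class read by many bHLH factors, was found within 250 bp of 29.4% of the 500 summits and 22.9% of the others (adjusted exact p = 0.00679), and CACACA of 45.4 and 38.4% (adjusted exact p = 0.00843). Neither differed detectably within 100 bp. Within 250 bp, CAGCTG passed the threshold near starts (34.6 against 26.6%, adjusted exact p = 0.0147) but not away from them (20.9 against 19.6%). CACACA passed away from starts (52.4 against 40.3%, adjusted exact p = 0.00962) but not near them (41.1 against 36.1%). The differences between these strata were not tested. TATAAA was less frequent within 250 bp, at 49.4 against 57.0% (adjusted exact p = 0.00679), and CACGTG was found at 6.4 and 5.81% (odds ratio 1.11, adjusted exact p = 0.673).

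All words of a fixed length were then compared, a step added after the data had been seen. Within 100 bp, 12 of 2080 words of 6 bases, 9 of 7926 words of 7 bases and 3 of 14232 words of 8 bases (0.0211%) differed between the 500 and the other peaks at an adjusted p under 0.05 (Fisher's exact test). Within 250 bp it was 51 of 30359 words of 8 bases (0.168%), of which 46 were more frequent in the 500 and 5 less. Words overlap, so these counts are not independent. Of the 51, 24 held GAGAG on either strand, led by GAGAGAGC at 13.6 against 4.22% (adjusted exact p = 5.35e-11). Fewer words could be tested in smaller sets of peaks. None of 3129 passed against the next 500 peaks and none of 21669 among peaks over 1 kb from a start, while 30 of 19727 passed among peaks within 1 kb.

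The leading word without GA repeats was CTACGCCC, the sequence shown above at CG14100, Ugalt and Tcs5. It was found within 250 bp of 26 of the 500 summits (5.20%) and 0.803% of the others (odds ratio 6.78, adjusted exact p = 5.07e-08), and within 100 bp of 3.20 and 0.357% (adjusted exact p = 4.12e-05). By rank, 7.00% of the 100 strongest peaks and 2.00% of the 250 weakest of the 500 held it within 100 bp, and 0.400% of the next 500. Within 250 bp, 4 of the next 500 held it, which missed the threshold against the 26 of the 500 (adjusted exact p = 0.0728), and over 1 kb from starts 5 of the 500 and 27 of the others did (adjusted exact p = 0.935). It was not spread evenly. Of its 27 sites around the 500, 21 lay in the 4 bins of 25 bp that begin 25 bp 3' of the summit, on the strand that reads it, and 0 lay in the same bins on the 5' side. Around the others 24 of 57 sites lay there, and 5 on the 5' side. Near starts it was found on both strands, with 13 of 22 sites on the strand of the nearest gene and 19 of 22 upstream of the start. CAGGGGCG was found within 250 bp of 6.4 and 1.65% (adjusted exact p = 7.50e-06), and its complement CGCCCCTG lay in those 3' bins in 22 of 37 sites and in the 5' bins in 2. These distances were chosen after the sites were seen. CGCCCCTG overlaps CTACGCCC, and the sites printed above at CG16753 and CG3009 hold both, so the words are not separate evidence. How many sites they share was not counted. No protein is named for either word here.

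The 500 summits lay within 1 kb of a start of 433 protein-coding genes, 3.11% of 13945, and with summits in gene bodies added the count was 573 (4.11%). All thresholded summits together reached 3984 genes (28.6%). A start of 1 gene was near 190 of the 500, starts of 2 genes near 115 and starts of 3 or more near 4, so the peak cannot be assigned to 1 gene in the latter cases.

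The top of the list lay at genes of varied function. The strongest peak, upstream of CG14100 on 3L, had relative signals of 34.3, 25.2 and 21.1 in replicates 1, 2 and 3. The second lay between Ugalt, which encodes a UDP-galactose transporter, and eIF2Bbeta, which encodes a translation initiation factor subunit, with 28.5, 25.5 and 19.9. Both fell in the same order over the replicates, as did the third, in an intron of ush beside cbt, with 28.7, 19.97 and 15.8. The gene ush encodes a cofactor of GATA factors and cbt a zinc finger protein. Not all of the strongest did so. The summit 141 bp upstream of Hsp27, a small heat shock protein gene (3L, 9384063 to 9385694), had 13.9, 13.4 and 13.8, and the intronic summit of CG11050 had 15.7, 18.2 and 17.1. Of the 25 strongest summits 17 lay within 1 kb of a start, none had CACGTG within 100 bp and 5 had CTACGCCC within 250 bp. Over the 500 these shares were 61.8, 1.40 and 5.20%, against 46.9, 1.65 and 0.803% of the others. Nothing is read from counts in 25 peaks.

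The peaks ranked 4 to 15 were nearest to PNPase, Lk6, Chro, CG11050, CG1888, Tcs5, CenG1A, Art3, CG16753 (in an intron of CG32486), osa, CG32772 and ph-p. After them came a peak 11916 bp from the nearest start, that of CG13323, on 2R, and a peak 137 bp upstream of mRpL41, which encodes a mitochondrial ribosomal protein (relative signal 14.2 ± 0.623, SD, n = 3). CG13921 followed at 14.0 ± 2.95 (SD, n = 3), Hsp27 came next, and Adf1, which encodes a transcription factor, at 14.0 ± 4.60 (SD, n = 3) over a peak 825 bp wide. The others up to rank 25 were larp, an RNA-binding protein gene, at 13.6 ± 2.31, and Sox14, a transcription factor gene induced by ecdysone, at 13.6 ± 4.01 (both SD, n = 3). Eip75B, CG43245 and LPCAT, which encodes a lysophospholipid acyltransferase, closed the group at 13.4 ± 1.93, 13.5 ± 3.94 and 13.3 ± 3.37 (each SD, n = 3). Their means, from rank 16 to rank 25, ran from 13.3 to 14.6, and the ranges over the replicates all overlapped.

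Of 8 core clock genes, none had one of the 500 summits within 1 kb of a start, against 3.11% of all genes, and nothing is read from a count of 0 in so short a list. With gene bodies added 1 of 8 (12.5%) had one, against 4.11% of all genes, and this was vri, which encodes a bZIP repressor of Clk. Its 2 intronic summits (2L, at 5292778 and 5297466) ranked 386 and 470. The first had relative signals of 3.46, 4.33 and 4.15 in replicates 1, 2 and 3, and the second 3.26, 4.16 and 3.39, so replicate 1 was the lowest in both. Neither had CACGTG within 100 bp. Of 12 genes for clock kinases, phosphatases and degradation factors, sgg, the GSK3 kinase gene, had a summit near a start (5.28 ± 0.550, SD, n = 3) and wdb one in its body. Of 11 bHLH-PAS and co-activator genes, none had a summit near a start, and sima, the HIF-alpha gene, and tai, a steroid receptor co-activator gene, each held one in an intron.

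Ecdysone response genes held summits of the 500 both near starts and inside their bodies. Within 1 kb of a start, 13 of 22 (59.1%) had a summit of the thresholded list, against 28.6% of all genes. Of 22, 4 (18.2%) had one of the 500 summits within 1 kb of a start, against 3.11% of all genes, and 10 (45.5%) when gene bodies were added, against 4.11%. No test was made of these lists, several of their genes are long, and gene length was not taken into account. The strongest lay in an intron of the nuclear receptor gene Eip75B (3L, 17950953 to 18064696), 12099 bp from the nearest start, with 14.5, 14.5 and 11.2 in replicates 1, 2 and 3. An intronic summit of the nuclear receptor gene Eip78C had 8.87, 8.25 and 8.10, and that of Hr4 had 7.09, 9.68 and 5.56. Among those near starts, hid, which encodes an inducer of cell death, stood at 5.35 ± 1.29, Ldh at 3.81 ± 1.05, the nuclear receptor gene Hr3 at 3.91 ± 0.546 and Hr96 at 3.50 ± 0.398 (each SD, n = 3). The start nearest to the summit was that of another gene for Hr3 (Hdc, 205 bp) and for Hr96 (EMC6, 66 bp).

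Glycolysis genes had the largest share near starts of the 21 lists, 4 of 14 (28.6%), against 3.11% of all genes. At Gapdh2 the relative signals in replicates 1, 2 and 3 were 4.51, 9.03 and 8.95, and at Eno, which encodes enolase, 2.01, 4.34 and 5.27. At Ldh they were 2.68, 3.99 and 4.76, and at Hex-A, a hexokinase gene, 2.64, 4.81 and 3.78. Replicate 1 was the lowest at all 4, although it was the highest for 272 of the 500 peaks. With gene bodies added 5 of 14 (35.7%) had a summit, against 4.11% of all genes. The added gene was Pgk, with 5.73, 5.81 and 4.41, so replicate 3 was the lowest there. The start nearest to that summit was that of another gene (Bacc, 394 bp), and no start of Pgk lay within 1 kb. Insulin and TOR pathway genes had 4 of 19 near starts (21.1%), against 3.11% of all genes. These were Lk6, REPTOR, Sesn and Pi3K21B, at 17.8 ± 3.22, 6.39 ± 1.00, 6.13 ± 0.623 and 3.6 ± 0.750 (each SD, n = 3).

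Cytosolic ribosomal protein genes stood above the share of all genes by both counts. Within 1 kb of a start, 73 of 86 (84.9%) had a summit of the thresholded list, against 28.6% of all genes, and 6 (6.98%) had one of the 500, against 3.11%. Among genes with any thresholded summit there, 6 of 73 held one of the 500. This was a smaller share than the 433 of 3984 over all genes, and no test was made. The strongest of the 6 were RpS27, RpL32, RpS19b and RpL7, from 5.70 ± 0.131 at RpS27 to 4.46 ± 0.585 at RpL7 (SD, n = 3). Translation initiation factor genes had 3 of 44 (6.82%), against 3.11% of all genes, which were eIF2Bbeta, eIF6 (12.8 ± 4.35, SD, n = 3) and eIF4EHP. None of 21 cuticle and glue genes, which are strongly expressed products of the epidermis and salivary gland, had a summit of the thresholded list near a start, against 28.6% of all genes. None had one of the 500 near a start or in its body, against 4.11% of all genes, and nothing is read from that count in a list of this size.

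Among the other signalling, chromatin, growth and heat shock lists, the share with one of the 500 summits near a start ran from 4.17% in the Brahma and trithorax group to 16.7% in the JNK and AP-1 list, except for the Dpp pathway with 0 of 14, against 3.11% of all genes. With gene bodies added the shares ran from 10% in the heat shock list to 28.6% in the Dpp pathway, against 4.11%. The counts are small, from 0 to 4 genes a list. The Dpp pathway had wit, shn, Dad and tkv in the body. In the Notch pathway fng had one near a start and neur, mam and N in the body, and in the Wingless pathway sgg had one near a start and arr and fz in the body. The EGF receptor pathway had spi near a start and aop in the body, and the Hippo pathway ds and ex near starts. Mkk4 and cbt had one near a start and puc in the body in the JNK and AP-1 list. Of the Brahma and trithorax group, brm had one near a start and osa, Trl and trx in the body, and of the Polycomb group, ph-p had one near a start and Psc and jing in the body. The insulator list had Chro and Cp190 near starts and Trl and mod(mdg4) in the body. Trl encodes GAGA factor itself, and its intronic summit had 7.41, 8.16 and 8.00 in replicates 1, 2 and 3. Of the growth list, stg had one near a start and Myc in the body, and Hsp27 and Hsp83 were the heat shock genes with a summit, the latter in an intron.

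Some genes held several of the 500 summits. Raf, a kinase gene of receptor tyrosine kinase signalling (X, 2295466 to 2343870), held 4, all intronic, at ranks 94, 153, 464 and 486. The relative signals of the strongest were 7.90, 7.00 and 6.27 in replicates 1, 2 and 3, and the weakest had 4.26, 3.45 and 2.82. Another 5 genes held 3 (Atat, CG1677, CHES-1-like, sbb and ush) and 27 genes held 2. With summits no more than 10 kb apart joined, 413 of the 500 stood alone, 35 groups held 2, 3 groups held 3 and 2 groups held 4. The groups of 4 lay at Raf and CG2865 on the X and at hid and CG7320 on 3L. Another thresholded summit lay within 1 kb of 27.2% of the 500 and 26.0% of the others.

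Width comes from the same peak calls as the signal and is described only. Of the 500, 33 share their interval with another summit of the list, with a median width of 491 bp, and the median of those that do not was 383 bp. The 500 peaks were 265 to 826 bp wide, with a median of 387 bp. Most of the other peaks (58.2%) had the commonest width of 410 bp, but 0.600% of the 500 did, while 36.2% of the 500 and 1.40% of the others were wider. The median fell from 428.5 bp in the 100 strongest to 391.5 and 362 bp in the next bands of the 500, then to 315, 243.5 and 225 bp, and returned to 410 bp in the 3227 weakest peaks. In that last band 93.7% had exactly 410 bp. The summit lay within 1 bp of the centre of the peak in 6.00% of the 500 and 60.1% of the others. The widest were near CG4004 (826 bp), at Adf1 (825 bp) and at prage (779 bp), and the narrowest at MFS18 (265 bp), near lgs (279 bp) and in ush (284 bp).

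**Figure D4:**
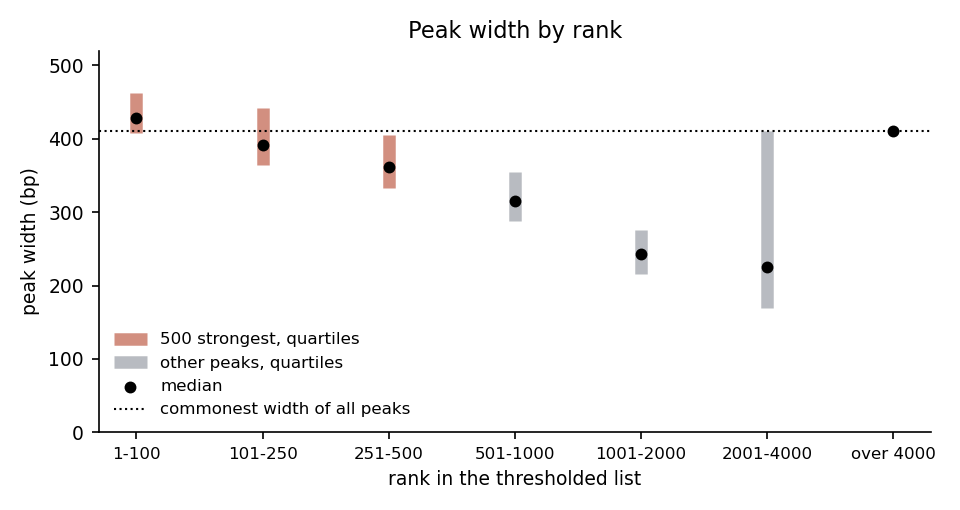
Peak width in bp by band of rank. Dots are medians, bars the quartiles (red for the 500 strongest peaks, grey for the other peaks), and the dotted line is the commonest width, 410 bp. Medians fall from 428.5 bp in the top 100 to 225 bp and stand at the common width in the last band.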

How the data were processed

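ChIP-seq peaks of 3 biological replicates were analysed. Per the labels, chromatin was sonicated. The lists were deposited in the narrowPeak layout, and their column of peak signal is the authors' deposited value, made against a control alignment per the deposited file descriptions. For the aligner and the peak caller, names and versions were not given in the sources used here. Read counts were not used here, so depth is unknown, and the control was not analysed here. Intervals cover counting error only.

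The members, motifs and gene lists were chosen with earlier results of these data known. Summits were placed with Ensembl release 115 gene models. Shares were compared with two-sided Fisher's exact tests, adjusted by Benjamini-Hochberg within each family (threshold 0.05), and peaks were treated as independent. Words needed at least 30 peaks. Of the gene list symbols, 18 did not match. Genes were named by rule: those at the 25 strongest summits and the boundary, up to 4 per list near starts, core clock genes, genes with 4 or more summits, the 5 strongest with CACGTG, and extremes of width and of variation. Genes in bodies and genes with 3 summits were named after their values were seen. Code was tested on simulated data. Python 3.11.15, numpy 2.4.6, pandas 2.3.3, scipy 1.17.1 and matplotlib 3.10.9 were used.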

Additional observations from a re-analysis of the deposited data

How the results depend on the processing

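The odds ratio for summits within 1 kb of a start stayed above 1 and past the threshold under each alternative run. Several other results moved. With the 250 strongest peaks, the odds ratio for divergent starts was 1.38 (exact p = 0.0538), the median width 411 bp, the gene count 230, the words that differed 29 and the held-out signal 6.12. With the 1000 strongest, the odds ratio for the X was 0.961, the width 354 bp, the gene count 784 and the held-out signal 3.43. Against the next 500 peaks, the odds ratio for divergent starts was 1.08 and 0 words differed. For GAGAGA the odds ratio was 1.44 when ranked by the replicate mean (adjusted exact p = 0.0447), 1.49 against all other pooled peaks (adjusted exact p = 0.0375), 0.574 within 50 bp and 2.03 within 250 bp. For CACGTG it was 1.54 within 50 bp and 1.11 within 250 bp, and for GTGCAC 0.774 within 50 bp. Leaving out 1 replicate gave 0.918 to 1.20 for the X, 0.846 to 1.11 for CACGTG and 1.38 to 1.47 for GAGAGA, which passed without replicate 2 or 3. With 5 kb around starts the gene count was 975. A neighbour lay within 500 bp of 8.80% and within 5 kb of 72.4%. The words that differed numbered 3 within 100 bp, 12 with 6 bases, 9 with 7 bases, 30 near starts and 0 away from them. The cause was not tested. Of the comparisons of introns, intergenic sequence and the 5 motifs other than CACGTG and GAGAGA that were followed, 53 kept direction and side of the threshold, 23 lost it, 2 gained it and 1 reversed. Joining summits within 500 bp changed no call. The word comparisons, the comparison without the X and the width of intervals listed once (383 bp) were chosen after seeing the data. No paired analysis was possible because the replicates form a single group.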
